A study of Arabidopsis thaliana with 9 samples.

Results

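CONSTANS (CO) messenger RNA was made under different promoters in the seedlings compared here. The 35S:CO line carries CO behind 35S, a viral promoter that is active in most plant tissues, and the SUC2:HA:CO line, written SUC2:CO below, carries a CO with an HA tag behind SUC2, a sucrose transporter promoter that is active in the companion cells of the phloem. The comparison was chosen by the line names that head the count columns, which gave 6 of the 9 libraries of the series, 3 of each line. SUC2:CO was made in the co-10 mutant, whereas the labels give Col-0 as the background of 35S:CO and name no mutation there. Promoter, CO level, tag and background therefore differ together and cannot be told apart. All seedlings were grown in soil at 22 °C in long days of 16 h light and 8 h darkness and were harvested 7 days after germination, 14 h after lights on (ZT14). The other 3 libraries are Col-0, the wild type, of the same age and time. The labels do not say whether the replicates were separate cultures or harvests, how many seedlings were pooled, or how many independent transformants stand behind a line, so a p-value measures only the spread between these libraries.

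CO is a B-box transcription factor whose protein accumulates in the light at the end of a long day. In the companion cells of the leaf it activates FLOWERING LOCUS T (FT), whose protein moves through the phloem to the shoot apex and starts flowering. The CO gene is itself timed by the circadian clock, in which morning-expressed MYB-like factors such as LHY and evening-expressed factors such as TOC1 and ELF4 repress each other.

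Strand-specific libraries were made from total RNA of whole seedlings, and each library held between 25563118 and 26636174 reads counted in genes. Levels are given as counts per 1e6 counts (CPM), scaled between libraries by TMM and not divided by gene length, in the order of replicates 1, 2 and 3. The counts cover 32833 genes, of which 19149 had enough counts for the test, and a gene is called different below at an adjusted p under 0.05 in edgeR's quasi-likelihood test. By that rule 18.8% of the tested genes were called, 9.27% with the higher level in 35S:CO and 9.5% with the lower, and a list of genes is read against those shares. The log2 fold change of 35S:CO over SUC2:CO had a median of 0.01 over all tested genes, with quartiles of -0.24 and 0.27. It is given below with a standard error, computed as its size divided by the square root of the test's F statistic. The replicates of both lines did not overlap in 40.9% of tested genes. In a principal component analysis of the 6 libraries the first component, with 63% of the variance, separated the lines. The second component, with 15.4%, set 35S:CO replicate 3 at -43.74, apart from replicates 1 and 2 of that line at 17.76 and 27.56. The count of called genes was 2076 without 35S:CO replicate 1, 2355 without 35S:CO replicate 3, 2029 without SUC2:CO replicate 2 and 1584 without SUC2:CO replicate 3, against 3595 with every library.

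The CO transcript, the check of the transgene, stood at 576, 658 and 676 CPM in 35S:CO and at 48.6, 50.9 and 60.3 CPM in SUC2:CO. Every 35S:CO library lay above every SUC2:CO library, and both lines lay above Col-0, at 9.54, 10.1 and 7.96 CPM. The log2 fold change between the lines was 3.58 ± 0.13 (adjusted p = 3.61e-07). AT5G15843 and AT5G15845 overlap CO in the annotation, and reads of CO and of these loci cannot be told apart where the counting strand is unknown. Each CO transcript was measured in RNA of the whole seedling, so the level in the cells that express it is not given by these values.

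FT stood at 92.9, 97.3 and 149.5 CPM in 35S:CO and at 336, 313 and 362 CPM in SUC2:CO. Every 35S:CO library lay below every SUC2:CO library, while CO was higher there, and both lines lay above Col-0 at 1.59, 2.62 and 2.61 CPM. The log2 fold change was -1.57 ± 0.2 (adjusted p = 0.000571). The 300 bases before the annotated FT start (chr1:24331073-24331372, plus strand, TAIR10.1, RefSeq annotation) are shown because they hold a published CO-binding word, TGTGNNATG, which is in capitals and begins 83 bases before the start.
FT: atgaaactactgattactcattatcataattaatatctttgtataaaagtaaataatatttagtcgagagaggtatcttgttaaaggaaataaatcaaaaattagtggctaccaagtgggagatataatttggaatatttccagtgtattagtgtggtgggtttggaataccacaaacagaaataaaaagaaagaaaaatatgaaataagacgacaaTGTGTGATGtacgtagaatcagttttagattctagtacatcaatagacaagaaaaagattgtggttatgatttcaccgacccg
The word was searched on both strands, and 3.96% of the 19029 promoters of tested genes held it, against 4.04% of the genes higher and 4.35% of the genes lower in 35S:CO. CCAAT, the word bound by the NF-Y partners of CO, was not in this window, and 53.8% of all promoters held it, against 56.7% of the higher and 51.9% of the lower genes. A word in a window is a match of letters and no more.

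Other members of the FT family and the floral regulators differed in both directions. Of 46 flowering genes 38 could be tested, 7 were higher and 9 lower, and their median log2 fold change was -0.03. CO itself is one of the 7. BROTHER OF FT AND TFL1 (BFT), a relative of FT that delays flowering, was at 10.4, 8.24 and 7.58 CPM in 35S:CO and 29.8, 36.5 and 37.6 CPM in SUC2:CO, without overlap (-1.99 ± 0.17). MADS AFFECTING FLOWERING 5 (MAF5), a repressor of the FLC clade, was at 1.66, 1.41 and 0.948 CPM in 35S:CO and 12.9, 16.3 and 12.9 CPM in SUC2:CO. Its log2 fold change was -3.39 ± 0.23 (adjusted p = 9.27e-06), and Col-0, at 0.492, 0.664 and 0.73 CPM, was below both lines. Among the factors that act downstream of FT at the apex, AGL20 (SOC1) was higher in 35S:CO (0.78 ± 0.17), with 41.2, 56.3 and 62.8 CPM against 33.4, 28.8 and 30.8 CPM, and AGL8 (FRUITFULL) was lower (-0.73 ± 0.22). AGL24, a partner of SOC1, had 0.75, 0.664 and 0.0729 CPM in 35S:CO and 0, 0 and 0 CPM in SUC2:CO, a wide spread in 35S:CO with replicate 3 lowest. Its call at adjusted p = 0.0461 was lost without 35S:CO replicate 1 or 2, Col-0 replicate 1 or any 1 SUC2:CO replicate, and with limma-voom. SEP1, a floral MADS-box gene, was 1.86 ± 0.3 and COL1, a close homologue of CO, 1.28 ± 0.15. SEP1 (AT5G15800) and COL1 (AT5G15850) are neighbours of CO itself on chromosome 5. COL5 (-1.2 ± 0.14), TEM1, a repressor of FT (-0.91 ± 0.25), and SNZ, an AP2-like repressor (-0.78 ± 0.15), were lower, whereas TOE2, of the same AP2-like family, was higher (0.63 ± 0.12). Of the flowering genes, 5 were lower without SUC2:CO replicate 1, 2 or 3. AGL8 lost its call without any 1 library of either line, and TEM1 without any but 35S:CO replicate 3.

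**Figure D1:**
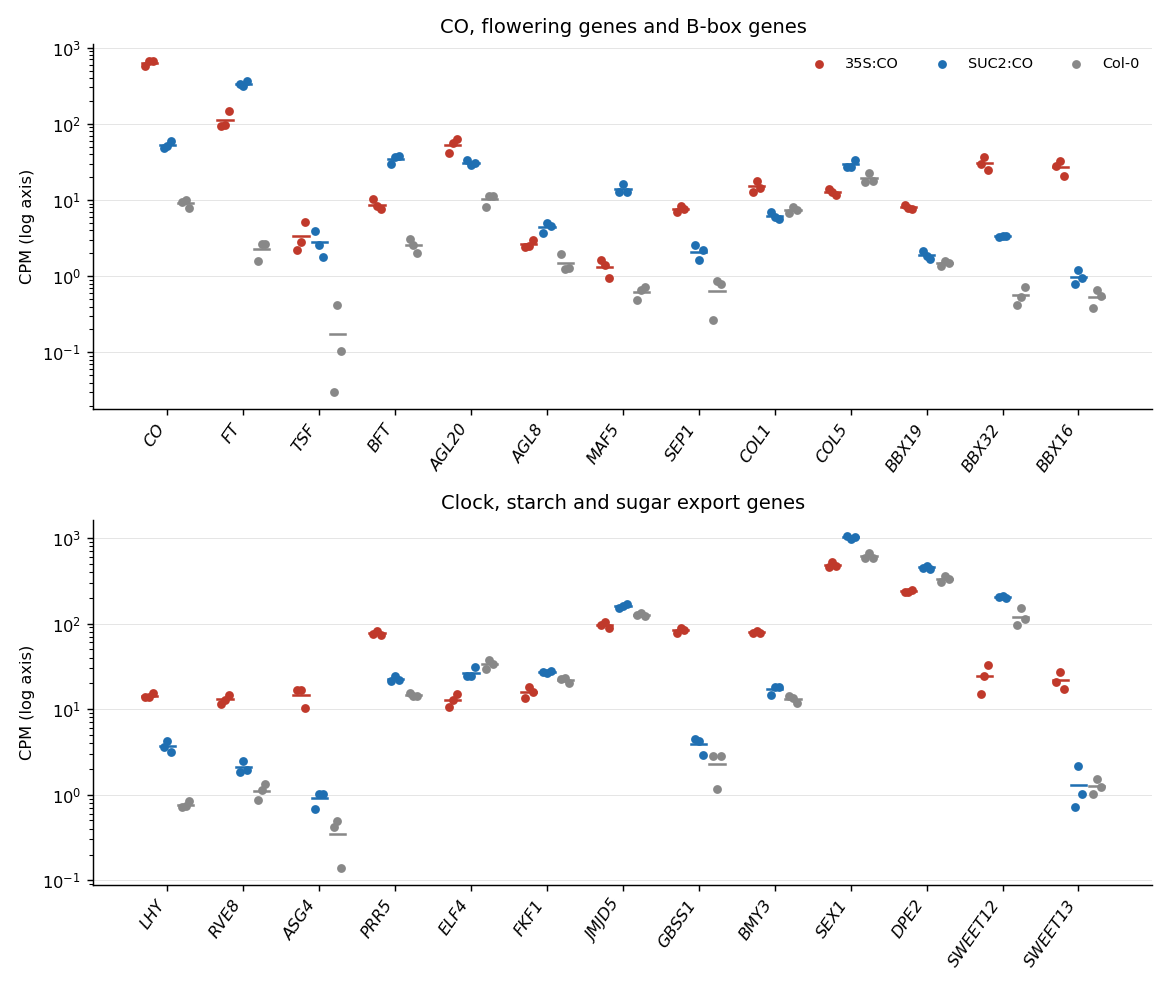
Levels of flowering, clock and starch genes in each library, in CPM on a log axis, with points for the replicates and bars for the group means of 35S:CO, Col-0 and SUC2:CO. A value of 0 is drawn at 0.03. CO and GBSS1 lie higher in every 35S:CO library than in every SUC2:CO library, while FT, BFT and MAF5 lie lower.

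Clock genes differed in both directions at this hour. Of 36 clock genes, all tested, 6 were higher and 9 lower, with a median of -0.25. LHY was at 13.7, 13.9 and 15.5 CPM in 35S:CO and 3.63, 4.24 and 3.14 CPM in SUC2:CO (1.97 ± 0.15, adjusted p = 2.46e-05). RVE8, a MYB-like activator of evening genes, was at 11.6, 12.9 and 14.6 CPM against 1.85, 2.5 and 1.95 CPM (2.63 ± 0.19), and ASG4 (RVE3), of the same family, at 16.9, 16.6 and 10.4 CPM against 0.68, 1.01 and 1.03 CPM (4.01 ± 0.32). The replicates did not overlap in any of these 3 genes, and Col-0 stood at 0.416, 0.498 and 0.139 CPM for ASG4. CCA1, the close paralogue of LHY, did not pass (0.48 ± 0.22, adjusted p = 0.162), and LNK2 (AT3G54500), a coactivator that works with the RVE8 family, was lower (-0.68 ± 0.18), though not without 35S:CO replicate 1 or 3 or SUC2:CO replicate 2 or 3. PRR5, a repressor that peaks in the afternoon, was at 76.1, 82.4 and 73.1 CPM against 21, 24.2 and 22.1 CPM (1.78 ± 0.09). Its relatives PRR3 (-0.61 ± 0.1) and TOC1 (-0.37 ± 0.09) were lower instead, the latter not without 35S:CO replicate 1, 35S:CO replicate 3 or SUC2:CO replicate 3. ELF4, a component of the evening complex, was at 10.7, 12.6 and 15.2 CPM against 24.4, 24.4 and 30.7 CPM (-1.05 ± 0.15). FKF1, the blue-light receptor that stabilises CO and removes repressors of the CO gene, was at 13.5, 18.1 and 15.8 CPM against 27, 26.6 and 27.6 CPM (-0.78 ± 0.11), and JMJD5, a demethylase with clock function, was lower too (-0.75 ± 0.1). The 9 lower clock genes became 4 without SUC2:CO replicate 3, and 5 without SUC2:CO replicate 2, 35S:CO replicate 1 or 35S:CO replicate 3.

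The evening element, AAAATATCT, is the word that LHY-type factors bind in promoters of evening genes. Searched on both strands in the 300 bases before each start, it was in 550 of 19029 promoters (2.89%), in 47 of 1756 genes higher in 35S:CO (2.68%) and in 96 of 1818 genes lower (5.28%). Among genes with a log2 fold change of at least 1 in size the shares were 3.13% of the higher and 4.73% of the lower. The promoters of 3 lower genes with the word are shown, 2 of them among the most abundant transcripts that were lower. Capitals mark the evening element or its reverse complement AGATATTTT. It begins 93 bases before the start in CCL (chr3:9827382-9827681), 84 in FBA5 (chr4:13390454-13390753) and 168 in MAF5 (chr5:25997204-25997503), all on the plus strand of TAIR10.1.
CCL: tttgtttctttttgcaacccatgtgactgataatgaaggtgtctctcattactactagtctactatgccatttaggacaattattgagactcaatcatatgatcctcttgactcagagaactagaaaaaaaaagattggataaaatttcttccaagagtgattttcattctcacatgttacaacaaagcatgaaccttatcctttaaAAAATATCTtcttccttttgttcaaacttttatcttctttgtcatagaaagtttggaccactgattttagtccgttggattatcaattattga
FBA5: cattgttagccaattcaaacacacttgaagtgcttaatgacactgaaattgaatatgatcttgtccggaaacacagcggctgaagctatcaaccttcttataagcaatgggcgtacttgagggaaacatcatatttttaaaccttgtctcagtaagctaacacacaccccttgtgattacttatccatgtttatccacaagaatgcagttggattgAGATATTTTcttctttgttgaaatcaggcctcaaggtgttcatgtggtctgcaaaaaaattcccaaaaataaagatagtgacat
MAF5: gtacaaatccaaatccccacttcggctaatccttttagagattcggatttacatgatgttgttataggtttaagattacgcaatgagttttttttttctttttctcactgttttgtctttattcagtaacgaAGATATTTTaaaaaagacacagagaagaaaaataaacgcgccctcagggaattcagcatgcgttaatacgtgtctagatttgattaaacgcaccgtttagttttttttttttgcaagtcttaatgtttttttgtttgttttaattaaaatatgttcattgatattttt
CCL, a transcript under circadian control, was at 317, 326 and 338 CPM in 35S:CO and 1128, 1181 and 1376 CPM in SUC2:CO, with Col-0 between them at 639, 642 and 669.8 CPM (-1.91 ± 0.11). FBA5, a cytosolic fructose-bisphosphate aldolase, was at 352, 414 and 272 CPM against 730.4, 904 and 963 CPM (-1.32 ± 0.19). Genes with the word were also among those higher in 35S:CO, PRR5 for one. The match is a description of the letters in the window.

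Starch genes also differed in both directions, and the synthase of amylose stood furthest apart. Of 29 starch genes, all tested, 4 were higher and 10 lower, with a median of -0.13. GBSS1, the granule-bound starch synthase, was at 76.5, 89.5 and 84.8 CPM in 35S:CO and 4.5, 4.24 and 2.91 CPM in SUC2:CO, and Col-0 was at 2.8, 1.16 and 2.85 CPM. The log2 fold change was 4.43 ± 0.26 (adjusted p = 3.75e-06), and no replicates overlapped. BMY3, annotated as a beta-amylase, was at 77.6, 81.8 and 77.8 CPM against 14.6, 18.2 and 18.3 CPM (2.21 ± 0.11), and GPT2, a plastid glucose-phosphate translocator, at 3.87, 3.67 and 26.2 CPM against 2.38, 1.29 and 0.574 CPM (2.99 ± 0.93). GPT2 stood far higher in 35S:CO replicate 3 than in its other replicates, and its call was lost with limma-voom and without that library or any 1 SUC2:CO replicate. BAM1, another beta-amylase, was higher as well (0.5 ± 0.1). Among the lower genes were some that act in the breakdown of starch at night. SEX1, the glucan water dikinase, was at 457, 523 and 470.0 CPM against 1043, 968 and 1029 CPM (-1.07 ± 0.11), PWD, the kinase that acts after it, was -0.51 ± 0.1, and DPE2, which uses the released maltose, was -0.93 ± 0.1. The branching enzyme SBE2.1 was lower by the same test (-0.54 ± 0.08). The count of lower starch genes was 6 without 35S:CO replicate 1, 35S:CO replicate 3, SUC2:CO replicate 2 or SUC2:CO replicate 3.

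The flavonoid pathway, which makes flavonols and anthocyanins from phenylalanine, was higher almost throughout in 35S:CO. Of 30 genes 29 were tested, 24 were higher and 0 lower, 22 of them by at least 1 on the log2 scale, as 3.35% of all tested genes were, and the median was 2.69. In the fit with each library left out in turn the count of higher members lay between 19 and 24. The summed level of the list was 3539, 2136 and 2303 CPM in 35S:CO, 2232, 1068 and 1111 CPM in Col-0 and 606.4, 644.3 and 548.9 CPM in SUC2:CO. The lowest 35S:CO library was thus far above the highest SUC2:CO library, and replicate 1 of 35S:CO stood above its other replicates.

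The enzymes at the entry of the pathway were higher. PAL1, the phenylalanine ammonia-lyase, was at 428, 279 and 298 CPM against 59.5, 50.4 and 39.9 CPM (2.75 ± 0.3), and PAL2 (2.86 ± 0.18) and C4H, cinnamate 4-hydroxylase (2.12 ± 0.18), were higher as well. TT4, chalcone synthase, was at 453, 140.4 and 248 CPM in 35S:CO, 371, 112 and 154 CPM in Col-0 and 46.2, 43.6 and 24.4 CPM in SUC2:CO (2.88 ± 0.52). CHIL, a chalcone isomerase-like protein, stood at 4.03 ± 0.43 and TT5, chalcone isomerase, at 1.38 ± 0.29. The late steps, which lead to anthocyanin, showed the largest differences of the list. DFR, dihydroflavonol reductase, was at 259, 98.2 and 127 CPM in 35S:CO and 1.21, 4.72 and 0.536 CPM in SUC2:CO. The replicates did not overlap, and the log2 fold change was 6.24 ± 0.91 (adjusted p = 0.00144). LDOX, the next enzyme, was at 121, 46.6 and 58.7 CPM against 0.945, 2.54 and 0.612 CPM (5.79 ± 0.8). TT7, flavonoid 3'-hydroxylase, which acts before DFR, was 4.91 ± 0.79. Genes that decorate and store anthocyanin were higher too. AT5MAT, a malonyltransferase, was at 96, 35.8 and 44.8 CPM against 1.06, 2.54 and 0.421 CPM (5.47 ± 0.81), UF3GT, a glycosyltransferase, was 5.28 ± 0.82, and GSTF12 (TT19), which is needed to bring anthocyanin to the vacuole, was 4.99 ± 0.66. FLS1, the flavonol synthase, was 1.59 ± 0.42, with 34.7, 15.1 and 33.4 CPM against 11.6, 10.4 and 5.55 CPM, and its call was lost without 35S:CO replicate 1 or 3 or SUC2:CO replicate 2 or 3.

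Among the regulators of the pathway, TT8, a bHLH factor, was at 16.4, 11.5 and 11.2 CPM in 35S:CO and 0.302, 0.565 and 0.23 CPM in SUC2:CO (5.15 ± 0.49, adjusted p = 0.000117). Its partners GL3 (2.8 ± 0.71) and EGL3 (2.16 ± 0.53) and the MYB factor PAP1 (2.51 ± 0.7) were higher in the fit of all libraries. PAP1 was at 23.7, 14.3 and 6.78 CPM against 2.08, 4.72 and 1.07 CPM. All 3 calls were lost with limma-voom and without 35S:CO replicate 1 or SUC2:CO replicate 1, that of GL3 also without SUC2:CO replicate 2, that of PAP1 without SUC2:CO replicate 3, and that of EGL3 without either of these. TTG1, the WD40 protein of the complex (-0.19 ± 0.14), MYB11 (0.93 ± 0.5), MYB111 (0.61 ± 0.39), MYB90 (2.13 ± 1.48) and the repressor MYBL2 (0.51 ± 0.23) did not pass. The DFR promoter (chr5:17166033-17166332, minus strand, TAIR10.1) is shown because a G-box, CACGTG, in capitals, begins 14 bases before its start.
DFR: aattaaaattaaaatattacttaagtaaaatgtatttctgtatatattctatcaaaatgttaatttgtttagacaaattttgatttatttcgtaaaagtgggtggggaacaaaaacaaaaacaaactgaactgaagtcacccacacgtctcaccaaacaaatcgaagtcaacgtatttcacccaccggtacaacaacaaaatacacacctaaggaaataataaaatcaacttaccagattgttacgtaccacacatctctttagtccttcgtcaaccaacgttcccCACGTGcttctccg
The G-box was in 7.96% of all promoters, in 8.6% of the genes higher and 8.31% of those lower in 35S:CO, and in 10.7% of the genes higher by at least 1.

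**Figure D2:**
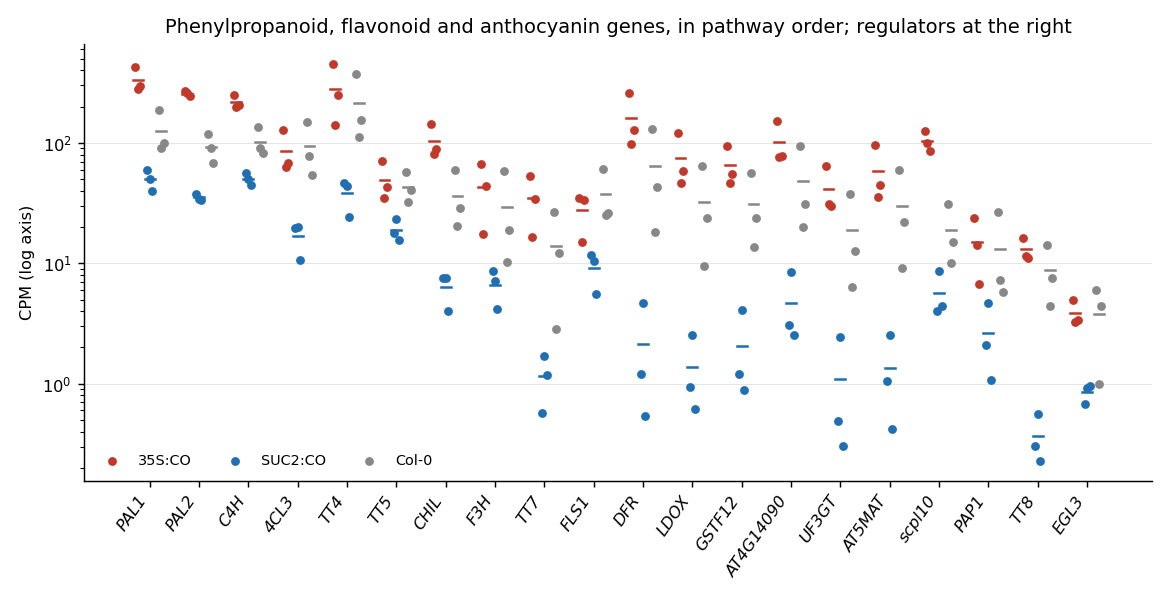
Levels of flavonoid genes in order of the pathway in each library, in CPM on a log axis, with points for the replicates and bars for the group means. The 35S:CO points lie above the SUC2:CO points from PAL1 to AT5MAT, and the Col-0 points mostly lie between them.

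Glucosinolates are sulfur-rich defence compounds of the cabbage family, made from methionine or tryptophan. Of 38 genes of their synthesis, transport and breakdown 36 were tested, 0 were higher and 17 lower, with a median of -0.64. Leaving out single libraries gave between 12 and 21 lower members. The summed level was 4588, 3936 and 3472 CPM in 35S:CO and 5939, 6204 and 5785 CPM in SUC2:CO, with no overlap, and 4516, 4904 and 4447 CPM in Col-0. IMS2, a methylthioalkylmalate synthase that lengthens the methionine chain, was at 0.237, 0.234 and 0.292 CPM in 35S:CO and 6.99, 9.33 and 10.6 CPM in SUC2:CO. Its log2 fold change of -5.11 ± 0.34 (adjusted p = 9.12e-06) was the largest of the list. CYP79F2, which starts the methionine branch, was at 4.66, 3.24 and 2.04 CPM against 16.9, 19.6 and 17 CPM (-2.43 ± 0.29), and MYB28, the regulator of that branch, at 91, 100.1 and 84.1 CPM against 161, 208 and 191 CPM (-1.02 ± 0.12). CYP79B2 (-1.24 ± 0.12) and CYP79B3 (-1.08 ± 0.2) of the tryptophan branch were lower too. The sulfotransferase SOT18 of the last step was at 84.5, 60.9 and 48.2 CPM against 139, 158 and 159.9 CPM (-1.24 ± 0.17). Outside synthesis the transporter GTR1 (-0.46 ± 0.11), the myrosinase TGG1 (-0.46 ± 0.14) and the nitrile specifier NSP5 (-0.77 ± 0.21) were among the 17. Each of these 3 calls was lost without 35S:CO replicate 1 or SUC2:CO replicate 2 or 3, those of GTR1 and TGG1 also without 35S:CO replicate 3, those of TGG1 and NSP5 without SUC2:CO replicate 1, and that of NSP5 without 35S:CO replicate 2.

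Sulfur genes, of sulfate uptake and assimilation and of the response to low sulfur, were tested in 15 of 16 cases. Of these, 1 was higher and 8 were lower, with a median of -0.39. Their summed level lay on the other side, at 820.8, 1051 and 882 CPM in 35S:CO and 619.9, 578.8 and 656.4 CPM in SUC2:CO. Col-0 summed to 415.7, 490.3 and 464.4 CPM, and APR2, given below, carried most of the 35S:CO sum. ATSDI1, a gene induced by sulfur starvation that represses glucosinolate synthesis, was at 0.0789, 0.391 and 0.146 CPM against 0.945, 1.45 and 2.64 CPM (-3.01 ± 0.6), and BGLU28, a beta-glucosidase of the same response, was -2.89 ± 0.69, but not called without SUC2:CO replicate 3. LSU2, another marker of low sulfur, was -1.19 ± 0.14, and SULTR1;2, the sulfate transporter of the root, -0.92 ± 0.17. APR2, adenylylsulfate reductase, was the higher member, at 495, 722 and 579 CPM against 176, 181 and 202 CPM (1.68 ± 0.16), while its paralogue APR1 was lower (-0.92 ± 0.13). The count of lower sulfur genes was 4 without SUC2:CO replicate 3 and 5 without SUC2:CO replicate 1 or 35S:CO replicate 1. Of 21 tested nitrogen genes 2 were higher, 1 without 35S:CO replicate 1 or SUC2:CO replicate 1, and 5 lower. The lower count was 1 without SUC2:CO replicate 3, 2 without 35S:CO replicate 1 and 3 without 35S:CO replicate 3 or SUC2:CO replicate 1 or 2. NRT2:1, the high-affinity nitrate transporter, was at 0.158, 0.352 and 0.0365 CPM in 35S:CO and 2.87, 2.42 and 2.41 CPM in SUC2:CO, with Col-0 at 4.31, 11.5 and 5.04 CPM (-3.81 ± 0.58). NIA2, nitrate reductase, was at 1732, 1989 and 1496 CPM against 879.6, 898 and 1125 CPM (0.85 ± 0.16). Of 18 tested iron and copper genes 0 were higher and 4 lower, among them FRU (FIT), the regulator of iron uptake (-1.13 ± 0.35), and the count was 1 without SUC2:CO replicate 2 and 2 without 35S:CO replicate 1 or 3 or SUC2:CO replicate 3. Of 14 tested phosphate genes 1 was higher and 2 lower, PHT1;4, a phosphate transporter, among the latter (-1.3 ± 0.33), but the lower count ranged from 1 to 6 with single libraries left out and was 6 without Col-0 replicate 1. In either direction 22.2% of iron and copper genes and 21.4% of phosphate genes were called, near the 18.8% of all tested genes. The call of FRU was lost with limma-voom and without any 1 library of either line or Col-0 replicate 3, and that of PHT1;4 without 35S:CO replicate 1 or 3 or SUC2:CO replicate 2 or 3.

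Defence genes of the salicylate and jasmonate pathways showed opposite balances of calls. Of 19 tested salicylate genes, 24 in the list, 9 were higher and 2 lower in 35S:CO, with a median of 0.76. EDS16 (ICS1), the isochorismate synthase that makes most salicylate, was at 12.9, 12.6 and 15.2 CPM in 35S:CO and 6.62, 5.49 and 7.31 CPM in SUC2:CO (1.07 ± 0.17). PBS3, which conjugates its product, was at 1.93, 1.8 and 3.87 CPM against 0.756, 0.848 and 0.765 CPM (1.68 ± 0.35), and WRKY46, a factor of this response, was 2.16 ± 0.4. The marker genes PR5 (1.29 ± 0.31) and BGL2 (PR2) (1.58 ± 0.49) passed as well, BGL2 with 13.7, 18.1 and 27.7 CPM against 4.5, 9.97 and 5.4 CPM, and the call of PR5 was lost without SUC2:CO replicate 2 or 3, that of BGL2 without any 1 library of either line. WRKY54 (-1.15 ± 0.27) and the receptor NPR4 (-0.63 ± 0.15) were lower, though neither was called without 35S:CO replicate 1 or SUC2:CO replicate 2 or 3, and the receptor NPR1 did not pass (-0.11 ± 0.11). The higher salicylate genes numbered 5 without SUC2:CO replicate 2 and 4 without SUC2:CO replicate 3, and the lower genes 0 without either of these or without 35S:CO replicate 1.

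Of 27 tested jasmonate genes, 31 in the list, 3 were higher and 8 lower, with a median of -0.28. AOC2, allene oxide cyclase, was at 404, 494 and 316 CPM in 35S:CO and 924, 766 and 780.5 CPM in SUC2:CO (-1.02 ± 0.22), OPR3, the reductase of the peroxisomal step, was -1.19 ± 0.15, and the lipoxygenase LOX3 was -0.98 ± 0.09. TIFY7 (JAZ9), a repressor of the response, was higher at 202, 265 and 221 CPM against 53.5, 49.3 and 52.5 CPM (2.15 ± 0.17), whereas JAZ12 was lower (-0.54 ± 0.09). The storage protein VSP2, often used as a marker of jasmonate, was higher (1.97 ± 0.59), with 76.9, 27 and 17.9 CPM against 12.7, 7.75 and 10.5 CPM, though not called with limma-voom or without 35S:CO replicate 1 or any 1 SUC2:CO replicate. Without SUC2:CO replicate 2 or 3, 4 jasmonate genes were lower, and without SUC2:CO replicate 1 or 35S:CO replicate 2 or 3, 5 were. The higher count was 1 without SUC2:CO replicate 1 or 2. Intracellular receptors of the NBS-LRR class that passed were mostly lower: of 111 tested, 2 were higher and 32 lower, with a median of -0.36. RPP4 was -1.09 ± 0.14 and SNC1 -0.69 ± 0.11, both receptors that act in resistance to pathogens. The lower count was 11 without SUC2:CO replicate 3, 15 without SUC2:CO replicate 2, 14 without 35S:CO replicate 1 and 20 without 35S:CO replicate 3. These genes lie in clusters of similar copies, between which reads may be shared. Of 25 cysteine-rich receptor-like kinases 0 were higher and 6 lower, the latter 2 without SUC2:CO replicate 3 and 3 without 35S:CO replicate 1. In either direction 24% of these kinases were called, against 18.8% of all tested genes.

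Genes of abscisic acid and cold differed in both directions. Of 26 tested 4 were higher and 6 lower, with a median of 0.32. The cold- and drought-induced LTI78 (RD29A) was at 8.52, 7.46 and 11.6 CPM in 35S:CO and 67, 43.5 and 54 CPM in SUC2:CO (-2.58 ± 0.21), and the dehydrin COR47 at 44.5, 51.3 and 48 CPM against 196, 173 and 205 CPM (-2.0 ± 0.12). KIN1 (-1.41 ± 0.33) and KIN2 (-0.9 ± 0.17), near-identical neighbours at AT5G15960 and AT5G15970, were lower too, and like SEP1 they lie close to CO on chromosome 5. CYP707A2, which breaks down abscisic acid, was higher (2.64 ± 0.41), as were the phosphatases ABI1 (0.88 ± 0.25) and HAB1 (0.89 ± 0.17), whereas HAI1, of the same phosphatase family, was lower (-2.81 ± 0.82). CBF1, an activator of the cold response, was higher (2.41 ± 0.72), with 1.62, 1.21 and 0.328 CPM against 0.378, 0.121 and 0.0766 CPM. The higher count was 2 without 35S:CO replicate 1, 35S:CO replicate 2, SUC2:CO replicate 2 or SUC2:CO replicate 3. Among 18 tested gibberellin genes 2 were higher, 1 without 35S:CO replicate 1 or 2 or SUC2:CO replicate 1, and 2 were lower: the synthesis gene GA3OX2 was 1.12 ± 0.23, and the DELLA repressors parted, with RGL1 at -1.15 ± 0.13, GAI at -0.71 ± 0.09 and RGA1 at 0.44 ± 0.12. The 22.2% of gibberellin genes called stood near the 18.8% of all tested genes. Of 12 tested senescence genes 1 was higher and 4 lower. SAG13 was at 0, 0.312 and 0 CPM against 1.55, 2.14 and 2.56 CPM (-4.28 ± 0.86), NYC1, a chlorophyll b reductase, was -0.87 ± 0.13, and SAG21 was higher (2.17 ± 0.34). Calls of this paragraph were lost for ABI1 without any 1 library of either line, for HAI1 without any but 35S:CO replicate 1, for CBF1 with limma-voom and without 35S:CO replicate 1 or 2 or SUC2:CO replicate 2 or 3, for RGA1 without 35S:CO replicate 1 or 2 or SUC2:CO replicate 1, and for KIN1 without SUC2:CO replicate 3. The lower senescence genes numbered 2 without 35S:CO replicate 1, 35S:CO replicate 2 or SUC2:CO replicate 3.

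Light signalling genes numbered 6 higher and 4 lower among 30 tested, with a median of -0.12. PIF4, a factor that promotes elongation, was at 18.7, 21.2 and 15.4 CPM in 35S:CO and 46.7, 43.3 and 56.5 CPM in SUC2:CO (-1.4 ± 0.16), PIL6 (PIF5) was -0.79 ± 0.13, and PIF7, of the same family, was higher (0.94 ± 0.1). B-box proteins, the family of CO, were mostly higher among those that passed. Of 20 tested, 6 were higher, 1 was lower and 13 did not pass, with a median of 0.40, and CO itself is one of the 6. The family was chosen by annotation word, which left out COL5, a CO-like gene given above as lower. BBX16 was at 27.8, 32.5 and 20.8 CPM against 0.794, 1.21 and 0.957 CPM, with Col-0 at 0.378, 0.664 and 0.556 CPM (4.77 ± 0.23). BBX32, a small B-box protein of light signalling, was at 29.9, 37 and 24.5 CPM against 3.25, 3.39 and 3.41 CPM (3.18 ± 0.18), and BBX31 at 12.9, 14.9 and 6.53 CPM against 0.907, 1.53 and 1.46 CPM (3.13 ± 0.45). BBX19, which binds CO and delays flowering, was at 8.52, 7.89 and 7.55 CPM against 2.12, 1.82 and 1.68 CPM (2.09 ± 0.17). The replicates of both lines did not overlap in any of these 4 genes.

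**Figure D3:**
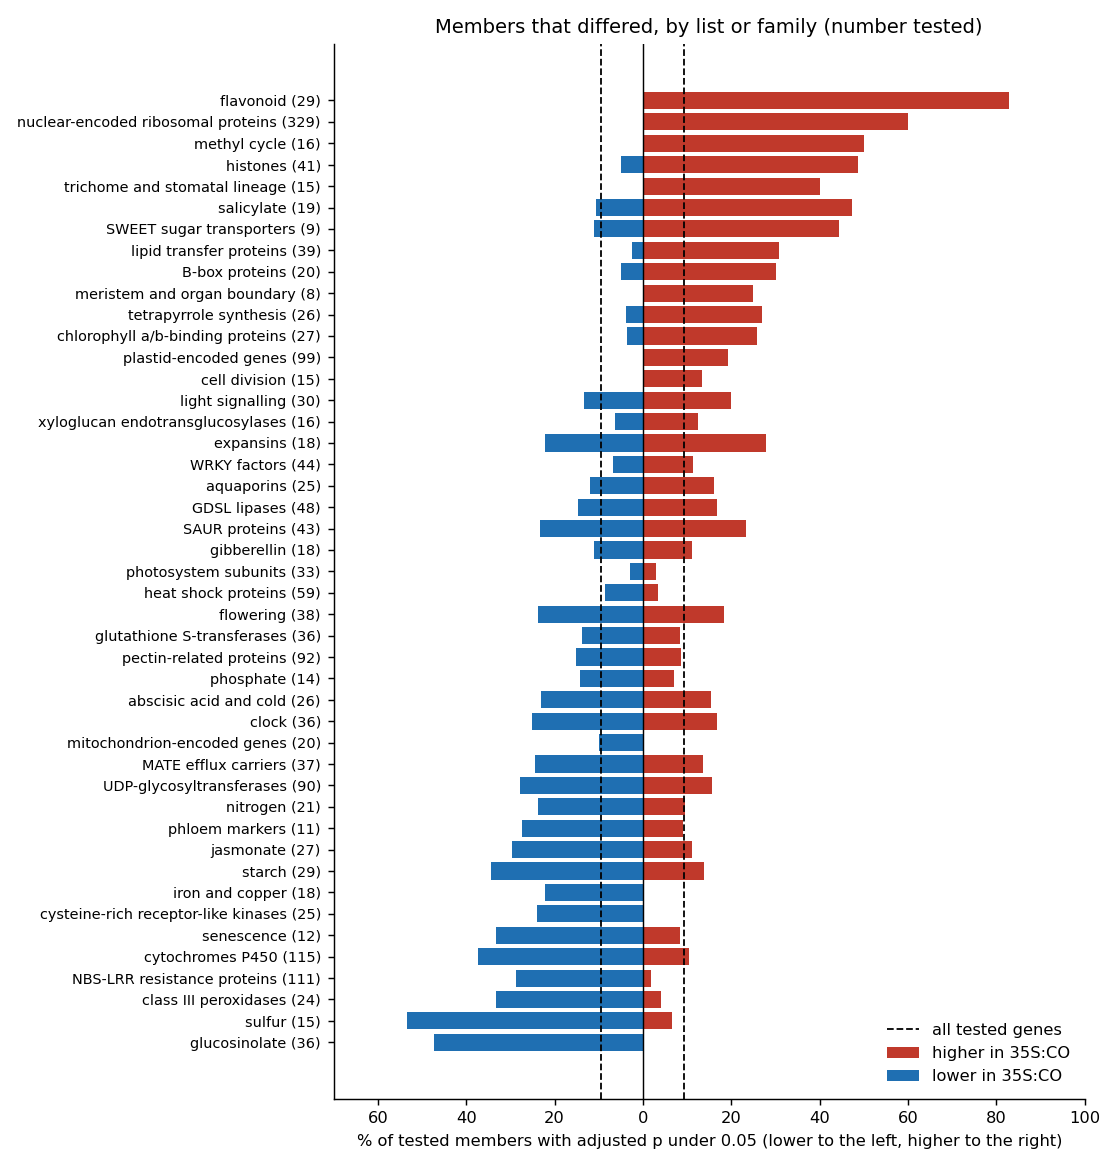
Share of the tested members of each list or family that were higher (right) and lower (left) in 35S:CO, in percent, with dashed lines at the shares of all tested genes, 9.27% and 9.5%. The flavonoid and ribosomal protein lists extend far to the right only, the glucosinolate list to the left only.

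Chlorophyll synthesis and photosynthesis did not move as one. Of 26 genes of tetrapyrrole synthesis, a list drawn up after values were seen, 7 were higher and 1 lower, with a median of 0.18. HEMA1, the glutamyl-tRNA reductase that sets the pace of the pathway, was at 528, 521 and 362 CPM in 35S:CO and 119.8, 145 and 128 CPM in SUC2:CO (1.85 ± 0.22). GUN4, a cofactor of magnesium chelatase, was 1.46 ± 0.22, CRD1, the cyclase, was at 2572, 2308 and 1911 CPM against 927, 1090 and 969 CPM (1.18 ± 0.15), and CH1, which makes chlorophyll b, was 1.29 ± 0.22. The higher count was 4 without 35S:CO replicate 1, SUC2:CO replicate 1 or SUC2:CO replicate 3. Of 27 chlorophyll a/b-binding proteins 7 were higher and 1 lower, but the median was 0.02. LHCB2.1 was at 1276, 1117 and 818 CPM against 344, 581 and 488 CPM (1.18 ± 0.2), the stress-related ELIP1 was 3.87 ± 0.8, but not called with limma-voom or without SUC2:CO replicate 3, and LHCB4.3 was lower (-1.67 ± 0.11). The call of CAB2 (1.38 ± 0.35) was lost without 35S:CO replicate 1, SUC2:CO replicate 1 or SUC2:CO replicate 3, and reads of the near-identical CAB and LHCB2 copies may be shared. The higher count of the family was 3 without SUC2:CO replicate 3 and 4 without SUC2:CO replicate 1. Of 33 photosystem subunits 1 was higher and 1 lower, and at most 3 were in either direction with single libraries left out, the 3 without Col-0 replicate 2. The 6.06% of these subunits called stood below the 18.8% of all tested genes. CAT2, the peroxisomal catalase, was the most abundant of the transcripts that differed by at least 1 without overlap, at 4356, 5014 and 3851 CPM against 865, 980.4 and 1063 CPM, with Col-0 at 741, 874 and 570.1 CPM (2.18 ± 0.18).

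Genes of the plastid genome were higher where they differed, 19 of 99 tested against 0 lower, with a median of 0.42. The 19.2% called stood near the 18.8% of all tested genes called in either direction, of which 9.27% were higher and 9.5% lower. Plastid-encoded genes took 1.22% to 1.39% of counts in 35S:CO, 0.882% to 0.972% in SUC2:CO and 1.1% to 1.45% in Col-0. ATCG01130 stood highest of them in level among the genes with a difference of at least 1, at 1679, 1324 and 1765 CPM against 786, 665 and 649.7 CPM (1.18 ± 0.16). Whether the libraries were selected for polyadenylated RNA is not given in the sources used here, and plastid transcripts depend on that step.

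Ribosomal protein genes of the nucleus made up the largest group of calls. Of 329 tested, 197 were higher in 35S:CO and 0 lower, and the median log2 fold change was 0.65. Their summed level was 44573, 34512 and 44320 CPM in 35S:CO, 30768, 30276 and 27845 CPM in SUC2:CO, and 63886, 51779 and 50809 CPM in Col-0. The 35S:CO libraries therefore stood above the SUC2:CO libraries and below those of Col-0. RPL24A, of the large subunit, was 1.11 ± 0.18, and RPL16A 1.08 ± 0.26, the latter not called without 35S:CO replicate 1 or 3 or SUC2:CO replicate 2 or 3. The higher count was 80 without SUC2:CO replicate 3, 127 without SUC2:CO replicate 2, 119 without 35S:CO replicate 1 and 120 without 35S:CO replicate 3. Most of these proteins have several near-identical genes, so the count of genes is larger than the count of proteins. Histone genes showed the same side, 20 higher and 2 lower of 41 tested, with a median of 0.31, and HIS1-3, a linker histone of drought, was lower (-3.93 ± 0.39). The histone count was 6 without SUC2:CO replicate 3, 7 without 35S:CO replicate 3, 8 without 35S:CO replicate 1, 9 without SUC2:CO replicate 2 and 10 without SUC2:CO replicate 1.

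Enzymes of the methyl cycle, which regenerate S-adenosylmethionine, the methyl donor of the cell, formed another list drawn up after values were seen. Of 16 genes 8 were higher and 0 lower, with a median of 0.48. SAHH2, S-adenosylhomocysteine hydrolase, was at 1369, 1257 and 1325 CPM in 35S:CO and 440.3, 393 and 314 CPM in SUC2:CO (1.78 ± 0.15, adjusted p = 4.46e-05). MS2, methionine synthase, was at 1015, 845 and 898 CPM against 312, 310.2 and 283 CPM (1.61 ± 0.13), and MAT3, S-adenosylmethionine synthetase, was 1.26 ± 0.12. The other synthetase genes SAM1 (0.05 ± 0.1) and SAM-2 (0.09 ± 0.11) did not pass.

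**Figure D4:**
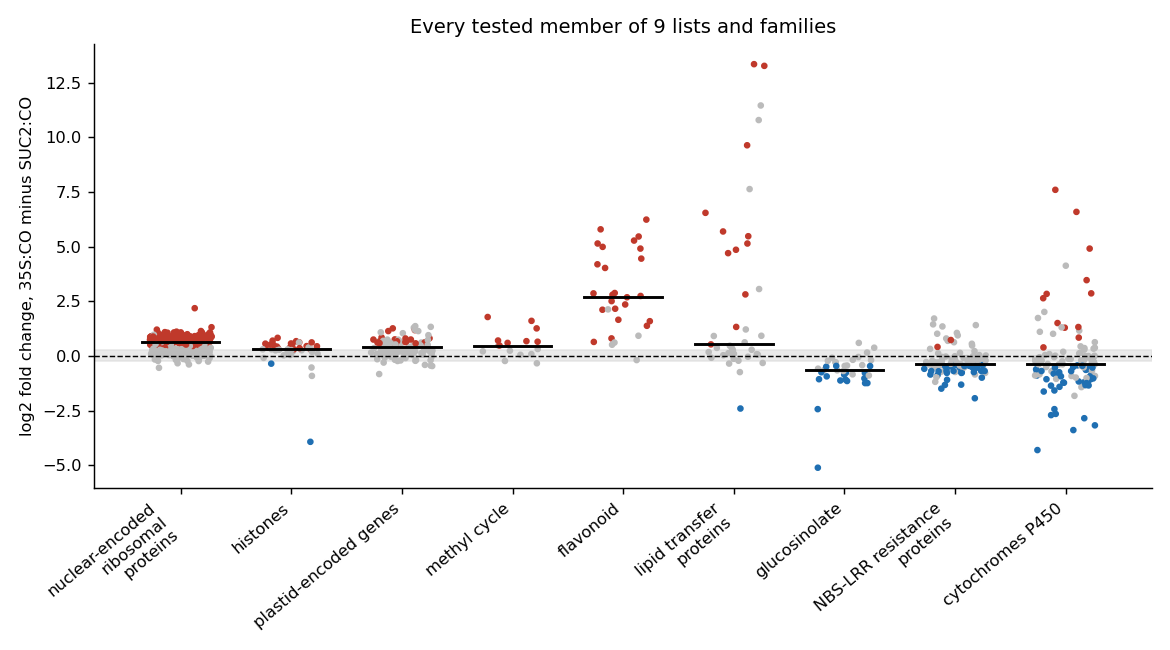
Log2 fold change of 35S:CO over SUC2:CO for each tested member of the lists, with red points for members higher, blue for members lower and grey for members that did not pass, and a black bar at the median. The grey band spans the quartiles of all tested genes, -0.24 to 0.27, and the flavonoid median of 2.69 stands furthest above it among the lists of more than 8 tested genes.

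Several enzyme families of specialised metabolism had more members lower than higher. Of 115 tested cytochromes P450 12 were higher and 43 lower, with a median of -0.39, and the higher count was 7 without SUC2:CO replicate 1. CYP71B19 was at 0.789, 1.37 and 1.2 CPM in 35S:CO, 0.568, 1.37 and 1.5 CPM in Col-0 and 19.8, 18 and 28.9 CPM in SUC2:CO (-4.3 ± 0.33). CYP72A8 was at 3.31, 8.63 and 11.3 CPM, 7.15, 12.9 and 16.9 CPM and 78.7, 74.4 and 91.7 CPM in the same order (-3.39 ± 0.4). SUC2:CO stood above both other genotypes in both genes, and 35S:CO overlapped Col-0. Of 90 UDP-glycosyltransferases 14 were higher and 25 lower, and without SUC2:CO replicate 3 these counts were 8 and 14. The higher count was 9 without SUC2:CO replicate 1, and the lower 15 without 35S:CO replicate 1. AT5G05890 of that family was -3.34 ± 0.13, and the anthocyanin gene UF3GT stood at the other end (5.28 ± 0.82). Of 24 class III peroxidases 1 was higher and 8 lower, the latter 4 without 35S:CO replicate 3 or SUC2:CO replicate 3 and 5 without 35S:CO replicate 2 or SUC2:CO replicate 2. Of 36 glutathione S-transferases 3 were higher and 5 lower, and the 22.2% called stood near the 18.8% of all tested genes. Of 37 MATE efflux carriers, membrane proteins that export small molecules, 5 were higher and 9 lower.

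SWEET sugar transporters and SAUR proteins, which respond to auxin, split within the family. Of 9 tested SWEET genes 4 were higher and 1 lower: SWEET13 was at 20.9, 27.3 and 17 CPM in 35S:CO and 0.718, 2.14 and 1.03 CPM in SUC2:CO (4.07 ± 0.34), and SWEET12, which loads sucrose into the phloem, at 14.9, 24.2 and 33.2 CPM against 205, 210.1 and 200.3 CPM (-3.09 ± 0.27). Its partner SWEET11 did not pass (-0.42 ± 0.15, adjusted p = 0.0804). Of 43 SAUR genes 10 were higher, 6 without SUC2:CO replicate 2, and 10 were lower, 6 without 35S:CO replicate 2 or 3 or SUC2:CO replicate 1 or 3. SAUR22 (-3.32 ± 0.68), SAUR23 (-2.51 ± 0.49), SAUR26 (-2.47 ± 0.56) and SAUR27 (-2.8 ± 0.38) were all lower. Their levels were low, with means between 0.13 and 0.3 CPM in 35S:CO and between 1.116 and 1.715 CPM in SUC2:CO. AT4G12410 (3.16 ± 0.74) and AT4G22620 (2.98 ± 0.27) were the highest members. AT4G12410 had only 0, 3 and 4 counts in SUC2:CO and was not called without 35S:CO replicate 1 or SUC2:CO replicate 2.

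Phloem, where the SUC2 promoter acts, was followed by 11 marker genes, of which 1 was higher and 3 lower, with a median of -0.24. The endogenous SUC2 transcript was at 131, 128 and 112 CPM in 35S:CO and 77.2, 93.7 and 98.1 CPM in SUC2:CO (0.47 ± 0.14). PP2-A1, a phloem lectin, was -0.54 ± 0.17, and FTIP1, which helps FT leave the companion cells, was -0.53 ± 0.13, with 6.86, 9.38 and 7.51 CPM against 11.6, 11.1 and 11.6 CPM. APL (-0.14 ± 0.1), SEOR1 (-0.06 ± 0.1) and CalS7 (0.07 ± 0.16) did not pass. The markers summed to between 1102 and 1227 CPM in 35S:CO and between 1487 and 1574 CPM in SUC2:CO, with 909 to 1314 CPM in Col-0. SWEET12, described above, was the other lower marker, with the lowest log2 fold change of the list, -3.09. It made up a large part of the difference between the sums of the lines. In whole seedlings fewer cells of a type and less RNA per cell cannot be told apart. The lower count was 1 without any 1 of SUC2:CO replicates 1, 2 and 3, 35S:CO replicate 1 or 35S:CO replicate 3. The calls of SUC2, PP2-A1 and FTIP1 were each lost without any 1 SUC2:CO replicate or 35S:CO replicate 1, those of SUC2 and PP2-A1 also without 35S:CO replicate 2, and those of PP2-A1 and FTIP1 without 35S:CO replicate 3, PP2-A1 further without Col-0 replicate 3 and with limma-voom.

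Among the markers of other tissues in this paragraph, only mesophyll and root markers were called. In each of these lists 66.7% of the 3 tested members were called, against 18.8% of all tested genes. None of 4 guard cell and none of 3 tested epidermis markers passed, with summed ranges of 80.3 to 114 CPM in 35S:CO against 75 to 97.5 CPM in SUC2:CO and of 259 to 315 CPM against 206 to 218 CPM. Of 3 mesophyll markers 2 were higher, 1 without 35S:CO replicate 1, SUC2:CO replicate 1 or SUC2:CO replicate 3, with 38471 to 46591 CPM against 32978 to 39589 CPM. Of 7 root markers 3 were tested, 1 was higher, in no fit without 35S:CO replicate 1 or 2 or any 1 SUC2:CO replicate, and 1 lower, and the sum was 117.3, 103 and 31.38 CPM in 35S:CO against 32.5, 39.12 and 33.07 CPM in SUC2:CO, while EXPA7 and TIP2;3 had no counts in either line. PYK10, a beta-glucosidase of root endoplasmic-reticulum bodies, carried most of that sum, at 107, 94.2 and 25.1 CPM against 20.3, 29.1 and 23.2 CPM (1.64 ± 0.45), and was not called with limma-voom. None of the 5 flower and 3 seed markers reached the test, at sums no higher than 1.09 CPM and 0.312 CPM in 35S:CO and 1.02 CPM and 0.242 CPM in SUC2:CO.

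Shoot meristem markers set single libraries apart within the lines. Their sum was 3.431, 6.285 and 0.03644 CPM in 35S:CO, 0.9461, 0 and 3.476 CPM in Col-0 and 0.07559, 0.2826 and 0.2296 CPM in SUC2:CO. 35S:CO replicate 3 and Col-0 replicate 2 were thus as low as SUC2:CO or lower, and the tested markers STM (4.01 ± 1.64) and KNAT1 (3.93 ± 1.45) did not pass with all libraries. Without 35S:CO replicate 3 the markers gave 2 higher calls, and without Col-0 replicate 2 they gave 1. Several, but not all, of the genes with the largest log2 fold changes followed the same libraries. AT4G22505, annotated as a lipid-transfer and seed storage 2S albumin type protein, was at 69.5, 78.1 and 2.55 CPM in 35S:CO, 38.1, 0.166 and 14 CPM in Col-0 and 0 in every SUC2:CO library. Against a floor of 3 counts in each SUC2:CO library the 35S:CO mean was at least 430-fold higher. Its neighbour AT4G22485, at 73.8, 67.9 and 0.584 CPM in 35S:CO and 71, 0.125 and 19 CPM in Col-0, was at least 408-fold higher by the same floor. AT4G22490 (18.1, 23.6 and 3.17 CPM against 0.302, 0.162 and 0 CPM), next to them, and the cutinase CDEF1 (15.6, 11.3 and 0.474 CPM against 0, 0.162 and 0.153 CPM) had the same low library in 35S:CO, and so did AT5G38940 and AT3G05727. The calls of AT4G22505, AT4G22485 and CDEF1 were lost without any 1 SUC2:CO replicate or 35S:CO replicate 1, that of AT4G22485 also without 35S:CO replicate 2 or Col-0 replicate 3, and that of AT4G22490 without SUC2:CO replicate 2 or 3. Those of AT5G38940 and AT3G05727 were lost without 35S:CO replicate 1 or any 1 SUC2:CO replicate, and that of AT5G38940 also without 35S:CO replicate 2. With limma-voom, which kept every library, none of these 6 genes was called. The part of meristem-bearing tissue in these differences was not tested.

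Of 39 tested lipid transfer proteins 12 were higher, 1 lower and 26 did not pass, with a median of 0.53, also with members absent from a line at their bounds. The higher count was 4 with limma-voom, 4 without SUC2:CO replicate 2 or 3, 18 without Col-0 replicate 2 and 7 without 35S:CO replicate 1 or SUC2:CO replicate 1. AT1G62510 of that family did not follow the meristem markers, at 514, 694 and 520.4 CPM in 35S:CO, 13.4, 19.5 and 9.25 CPM in Col-0 and 22.6, 22.1 and 21.6 CPM in SUC2:CO (4.7 ± 0.25). AT3G52130 was likewise even between replicates, at 6.98, 7.7 and 8.17 CPM against 0.113, 0.121 and 0.191 CPM (5.7 ± 0.59).

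Developmental regulators formed 3 lists drawn up after values were seen. Of 8 tested genes of the meristem and organ boundary 2 were higher and 0 lower, CUC3, a boundary factor at 0.789, 1.02 and 0.182 CPM in 35S:CO and 0, 0 and 0 CPM in SUC2:CO, and ANT, an AP2-type growth regulator (1.47 ± 0.41). CUC3 lost its call without SUC2:CO replicate 3, and ANT with limma-voom and without 35S:CO replicate 1 or 2 or any 1 SUC2:CO replicate. The count was 0 without SUC2:CO replicate 3, 5 without 35S:CO replicate 3 or Col-0 replicate 2 and 1 without 35S:CO replicate 1 or 2 or SUC2:CO replicate 1 or 2, and the median of 3.45 was 2.03 with members absent from a line at their bounds. Of 15 tested trichome and stomatal lineage genes 6 were higher and 0 lower, with a median of 1.45. TTG2, a WRKY factor of trichomes, was at 10.6, 6.37 and 7.91 CPM against 0.832, 0.969 and 0.536 CPM (3.41 ± 0.5), and TRY, an inhibitor of trichome fate, at 4.89, 5.9 and 5.21 CPM against 1.21, 1.21 and 0.727 CPM (2.34 ± 0.23). MUTE, of the stomatal lineage, was higher (1.45 ± 0.37), but not without 35S:CO replicate 3 or SUC2:CO replicate 2 or 3, while SPCH (1.54 ± 0.63), TMM (1.17 ± 0.48) and EPF2 (2.05 ± 0.84) did not pass. MYB0 (GL1), which starts trichomes, had 0.828, 0.352 and 0.985 CPM against 0, 0 and 0 CPM, and its call and that of CYCD3;1 were lost without 35S:CO replicate 1 or 3, any 1 SUC2:CO replicate or Col-0 replicate 3. The count was 2 without SUC2:CO replicate 2 and 3 without SUC2:CO replicate 1 or 3 or 35S:CO replicate 1. Of 15 cell division genes 2 were higher and 0 lower, CYCD3;1 (0.71 ± 0.22) and PCNA1 (0.88 ± 0.18), with a median of 0.83. The 13.3% called stood below the 18.8% of all tested genes. With single libraries left out the count lay between 1 and 13, at 13 without Col-0 replicate 2, which enters the comparison only through the shared estimate of spread, at 5 without Col-0 replicate 1, at 4 without 35S:CO replicate 2 and at 1 without any other.

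Genes with a large log2 fold change that stood apart in every library, without the uneven replicates of the meristem group, were led by a small number. AT3G05770, an uncharacterised protein, was at 18.8, 25 and 33.5 CPM in 35S:CO, 0, 0.166 and 0 CPM in Col-0 and 0, 0 and 0.0383 CPM in SUC2:CO. AT5G24880, annotated as a chromodomain protein, was at 8.8, 9.77 and 9.77 CPM against 0.189, 0 and 0.0766 CPM (6.64 ± 0.47), with no counts in Col-0. These 2 genes were close to undetected in both other genotypes. On the lower side AT5G03285, a non-coding RNA, was at 0.158, 0.156 and 0.0729 CPM in 35S:CO, 7.08, 11.7 and 13 CPM in Col-0 and 16.6, 16.9 and 15.7 CPM in SUC2:CO (-6.95 ± 0.33). ATMDAR2, a monodehydroascorbate reductase, was at 1.34, 1.49 and 1.53 CPM, 37.4, 42.9 and 61.2 CPM and 62.1, 53.4 and 61.3 CPM in the same order (-5.34 ± 0.21), and LUL1, a RING-type ubiquitin ligase, at 0.592, 0.664 and 0.584 CPM, 6.77, 8.43 and 9.25 CPM and 16.6, 15.2 and 18.1 CPM (-4.75 ± 0.18). For these genes 35S:CO stood apart from both other genotypes. AT2G33830, related to dormancy and auxin, was at 6.11, 11.9 and 7.66 CPM against 62.1, 83.6 and 152 CPM (-3.54 ± 0.39), with Col-0 between the lines at 15.1, 31.7 and 25.2 CPM. The 12 lowest log2 fold changes among called genes whose replicates did not overlap and whose log2 CPM averaged 1 or more belonged to genes that kept their calls with each library left out.

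ATMDAR2, LUL1 and AT5G03285 are neighbours on chromosome 5. Of the tested genes 6.23% differed by at least 1 and 2.08% by at least 2 on the log2 scale, and a run of 50 neighbouring tested genes held a median of 1 such gene. The run from AT5G03140 to AT5G03640 held 8. Besides the 3 genes above these were DIP2 (3.23 ± 0.74), not called without SUC2:CO replicate 1 or 2, AT5G03355 (-3.19 ± 0.54), AT5G03620, AT5G03640 and AT5G03495, some higher and some lower in 35S:CO. AT5G03495 had no counts in 35S:CO above the floor and was at 3.1, 4 and 2.76 CPM in SUC2:CO and 1.21, 2.16 and 2.4 CPM in Col-0, which makes it at least 28.6-fold lower. The run from AT4G22290 to AT4G22880 on chromosome 4 held 10. It contains the lipid-transfer neighbours described above, LDOX, AT4G22620, ACR7 (-2.8 ± 0.12) and 3 non-coding loci that overlap one another, AT4G07070, AT4G07075 and MIR8176, which may share reads. The highest count in a run was 7 on chromosome 2, 6 on chromosome 3 and 4 on chromosome 1. The lines differ in background and carry transgenes whose positions are not given in the sources used here, and the part of either in these runs was not tested.

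**Figure D5:**
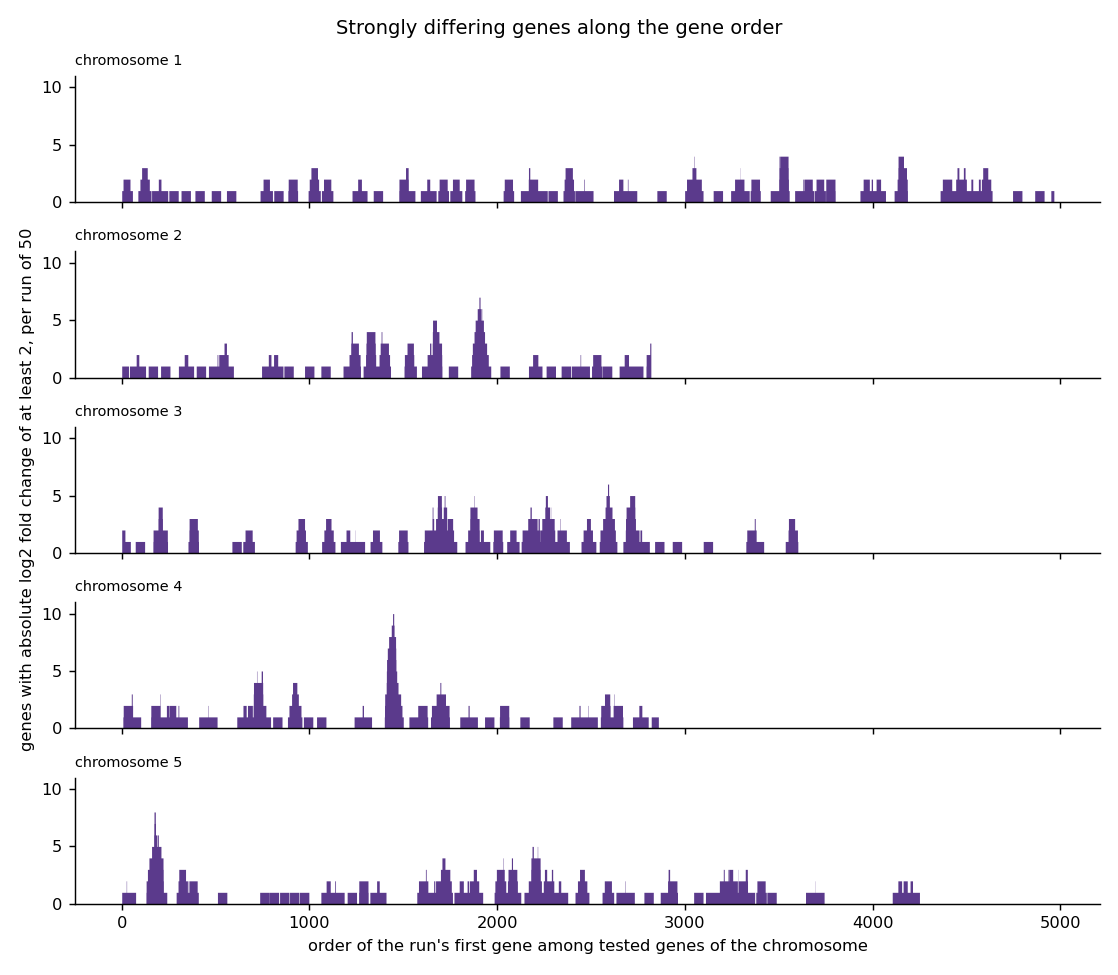
Number of tested genes with an absolute log2 fold change of at least 2 among the called genes in each run of 50 neighbouring tested genes, along the gene order of each nuclear chromosome. Chromosome 4 reaches 10 and chromosome 5 reaches 8 where most runs hold about 1.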

How the data were processed

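Whole seedlings of 3 genotypes with 3 replicates each were measured by RNA-seq from strand-specific libraries, per the labels' protocols. The authors deposited one table of whole-number counts per gene. Per the submitters' processing notes TAIR10, FastQC, STAR, featureCounts and limma were used. Versions, the annotation release and the strand setting of the counting are not given in the sources used here. Reads of overlapping genes on opposite strands, and reads shared by near-identical genes, may have been assigned to either gene or dropped.

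Genes were tested with edgeR 4.0.16 in R 4.3.3: filterByExpr, TMM scaling, a quasi-likelihood fit over all 9 samples with 1 term per genotype, and the contrast 35S:CO minus SUC2:CO, two-sided, with Benjamini-Hochberg adjustment over 19149 tested genes. The script was tested on simulated data. Total counts of 25563118 to 26636174 per sample put 3 counts, the floor used for bounds, at 0.113 to 0.117 CPM. Promoters and gene names came from the RefSeq annotation of TAIR10.1, and 285 of 32833 loci had no match. The members and lists were chosen with earlier results of these data known, and the lists of tetrapyrrole synthesis, the methyl cycle, meristem and organ boundary, trichome and stomatal lineage and cell division after values were seen. Named genes start with CO. Others were drawn from called genes whose replicates did not overlap and whose mean log2 CPM reached 1. Among these the 12 largest log2 fold changes in each direction were taken, and the 8 most abundant in each direction with a size of at least 1. Up to 4 called members of a list in each direction followed. Not every gene of these sets is named in the text. Other genes named were chosen after their values were seen. Alternatives were other filters and scalings, DESeq2 1.42.0, limma-voom (limma 3.58.1), the 6 samples alone, a replicate block, a stricter threshold and each library left out.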

Additional observations from a re-analysis of the deposited data

How the results depend on the processing

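The count of 3595 genes that differed was 3536 with no filter, 3546 with a mean of at least 10 counts, 3539 with RLE scaling, 3159 with library totals, 4267 with DESeq2, 3459 with limma-voom and 4406 in the 6 samples alone. Of these settings none moved that count by more than 1.5 times, which the threshold and single libraries did. At an adjusted p under 0.01 it was 1413, with 718 higher and 695 lower, and the count over all lists and families fell to 348 from 696. With each library left out the count lay between 1584 and 4110, that of higher genes between 873 and 2366, of lower genes between 711 and 1993, and of the lists and families between 368 and 771. Such a fit has 1 sample fewer in a group, and the remaining samples share the spread of all groups. The log2 fold change of CO lay between 3.517 and 3.715. The labels do not say whether equal replicate numbers pair the samples. Deviations of same-numbered libraries of the lines correlated at -0.044, 0.0464 and -0.113, which cannot show how the libraries were harvested. A fit with the replicate number as a block called 4348 genes, and 3563 in the 6 samples alone. Of 100 counts of list or family members in 1 direction, 17 moved by more than 1.5 times with DESeq2, 7 with limma-voom, 12 with no filter, 10 with library totals, 18 in the 6 samples alone, 19 with the block and 18 with the block in the 6 samples, and most of these counts were small. The higher cell division genes, 2, were 7 with DESeq2, 8 with the block and 13 in the 6 samples alone, and 10 there with the block. The lower phosphate genes, 2, were 4 with DESeq2 or the block and 6 in the 6 samples alone with or without it. Lower gibberellin genes, 2, were 4 with the block or in the 6 samples alone. Lower sulfur genes, 8, were 5 with no filter or library totals, lower nitrogen genes, 5, were 8 with the block, lower clock genes, 9, were 5 with the block in the 6 samples, and higher lipid transfer proteins, 12, were 4 with limma-voom. In promoter windows of 500 bases, a setting chosen after seeing the data, 7.48% of the lower genes and 4.43% of all tested genes held the evening element. Of 252 named or listed genes 160 kept their call in every setting and 163 with each library left out, and no gene changed its direction and no value reversed in any setting run. Calls of these genes were lost for 23 with library totals, 21 with limma-voom, 12 with no filter, 5 with the block, 17 with the block in the 6 samples, 2 with DESeq2, 2 with RLE scaling and 90 at an adjusted p under 0.01. Library totals ended those of AGL8, TEM1, GPT2, NSP5, BGL2, ABI1, FRU and CYCD3;1, no filter those of AGL8 and FRU, the block those of AGL8, AGL24, GPT2 and FRU, RLE scaling that of PP2-A1, limma-voom that of CYCD3;1, the block in the 6 samples those of TOC1, GPT2 and FRU, and DESeq2 that of BGL2. The lowest levels named, of about 1 CPM or less, rest on few counts per library.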

Other observations

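A few strong differences fell outside the lists and are given here as genes chosen after their values were seen. NDA1, an alternative NAD(P)H dehydrogenase of mitochondria, was at 126, 149.5 and 133 CPM in 35S:CO, 3.37, 3.7 and 3.03 CPM in Col-0 and 3.97, 4.12 and 2.45 CPM in SUC2:CO (5.28 ± 0.18). MIPS2, which makes the precursor of myo-inositol, was at 97.3, 104 and 139 CPM in 35S:CO, 4.01, 2.7 and 4.76 CPM in Col-0 and 5.67, 4.08 and 3.56 CPM in SUC2:CO (4.67 ± 0.24). In both genes SUC2:CO stood near Col-0 and 35S:CO apart from them. CSLA01, a cellulose synthase-like protein, was 4.13 ± 0.35 with 292, 300.4 and 260.3 CPM against 23.4, 13.5 and 11.6 CPM, and LEA3, a late embryogenesis abundant protein, was 3.76 ± 0.17 with 259, 300.3 and 279.8 CPM against 18.9, 20.8 and 22.2 CPM. LEA3 was at 0.908, 1.7 and 0.939 CPM in Col-0, below both lines.

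Further genes chosen after their values were seen follow. TAT7, a tyrosine transaminase, was at 42.8, 41 and 36.2 CPM in 35S:CO and 5.9, 6.42 and 5.36 CPM in SUC2:CO (2.76 ± 0.12), and G-TMT, which methylates tocopherol, was 2.61 ± 0.15. ADT4, an arogenate dehydratase that makes phenylalanine, was at 83.9, 77.9 and 94.2 CPM against 17, 18.9 and 16.1 CPM (2.3 ± 0.12), and PPT2, which moves phosphoenolpyruvate into plastids, was 3.04 ± 0.21. Lower genes not described above included the beta-amylase BAM6, at 7.89, 18.3 and 14 CPM against 55.4, 54.8 and 69.5 CPM (-2.16 ± 0.35), the expansin EXPA8, at 14.4, 8.48 and 5.11 CPM against 45.5, 75.6 and 72.8 CPM (-2.8 ± 0.33), and BZIP61 (-2.22 ± 0.31). PCC1, a gene under clock and pathogen control, was at 55.8, 100 and 91.5 CPM in 35S:CO, 3.56, 31.4 and 21.5 CPM in Col-0 and 248, 277 and 302 CPM in SUC2:CO (-1.74 ± 0.53), but its call was lost with DESeq2, with limma-voom and without any 1 library of either line or Col-0 replicate 3. LNG2, which lengthens leaf cells, was -1.57 ± 0.17. The replicates of both lines did not overlap in any gene of this paragraph whose CPM are given.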
